A study of Homo sapiens with 2 samples.

Results

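The S100 genes encode small calcium-binding proteins, and 10 of them were followed in A549 lung adenocarcinoma cells that overexpress MYOCD and in wild-type A549 cells. The members were taken by symbol from a deposited table of 56255 gene symbols on 57979 rows: S100A2, S100A3, S100A4, S100A6, S100A10, S100A11, S100A13, S100A14, S100A16 and S100P. Each stood on a single row. Both groups came from A549, an established human line of alveolar epithelial origin grown in DMEM with serum, and each was represented by 1 library. The MYOCD group carries added MYOCD, the gene of myocardin, which works with SRF to switch on smooth and cardiac muscle genes, and the WT group is labelled as untreated. The labels do not say which vector or promoter drove MYOCD or whether the cells were a single clone. With 1 library a group, no value has a replicate error and no p-value was computed.

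An S100 protein carries a pair of EF hands, helix-loop-helix folds that hold calcium, and most S100 proteins act as dimers that change shape on calcium binding and then grip a target protein. Inside the cell their targets include annexins and cytoskeletal proteins, and several S100 proteins are also released and bind the receptor RAGE. Most of the family lies side by side in the epidermal differentiation region of chromosome 1, and its expression is known to differ widely between epithelia.

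Levels are given as RPKM, reads scaled to gene length and library size, as the authors deposited them. Changes are log2((MYOCD RPKM + 0.5)/(WT RPKM + 0.5)), which understates changes of genes near the pseudocount of 0.5 RPKM. A gene with at least 1 RPKM in a library was counted, and was called higher or lower at a 2-fold difference or more. This sets a size and is no test. Depth is unknown, so counting error could not be computed.

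S100A2 was the member higher by 2-fold and S100P the member lower by 2-fold, and their promoter windows are shown with that of S100A6, an abundant member whose libraries differed by under 1.1-fold. Each window runs 5′ to 3′ from 250 bases before to 50 bases after a transcript start of RefSeq on GRCh38.p14. Capitals mark TGANTCA, an AP-1 motif, in S100A2 (chr1:153565795-153566094, minus strand) and TATAAA in S100P (chr4:6693628-6693927, plus strand). The S100A6 window (chr1:153535942-153536241, minus strand) held no exact match to either motif. It does hold tataag, which differs from TATAAA in its last base, and inexact matches were not searched. RefSeq gives S100A2 a second window, from another start (chr1:153563838-153564137, minus strand), which held neither motif and is not printed.
S100A2: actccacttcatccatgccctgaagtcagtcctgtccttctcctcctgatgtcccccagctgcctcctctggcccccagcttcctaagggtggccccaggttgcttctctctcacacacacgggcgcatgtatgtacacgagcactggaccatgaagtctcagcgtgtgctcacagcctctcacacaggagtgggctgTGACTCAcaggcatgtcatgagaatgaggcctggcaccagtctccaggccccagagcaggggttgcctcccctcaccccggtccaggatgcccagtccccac
S100P: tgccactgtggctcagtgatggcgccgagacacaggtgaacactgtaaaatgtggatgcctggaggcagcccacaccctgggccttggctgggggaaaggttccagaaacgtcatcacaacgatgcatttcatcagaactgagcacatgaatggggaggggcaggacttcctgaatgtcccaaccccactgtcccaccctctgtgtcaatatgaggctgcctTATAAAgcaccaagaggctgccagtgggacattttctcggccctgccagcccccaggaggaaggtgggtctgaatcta
S100A6: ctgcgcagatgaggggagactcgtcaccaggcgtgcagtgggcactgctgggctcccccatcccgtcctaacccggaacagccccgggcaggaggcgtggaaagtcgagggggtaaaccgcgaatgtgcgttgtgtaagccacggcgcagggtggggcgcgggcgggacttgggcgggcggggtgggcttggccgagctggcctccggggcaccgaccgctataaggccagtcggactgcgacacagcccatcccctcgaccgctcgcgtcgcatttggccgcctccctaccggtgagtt

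The targeted gene followed the labels, with MYOCD at 48.6 RPKM in the MYOCD library, against 0.304 RPKM in the WT library. The deposited values summed to 880876 RPKM in MYOCD and 886700 RPKM in WT, and 15973 and 16161 genes reached 1 RPKM. The epithelial genes KRT8, KRT18, CDH1 and EPCAM summed to 2231 RPKM in MYOCD and 3206 RPKM in WT. EPCAM was the 1 of these 4 called higher, with 2.57 RPKM in MYOCD and 0.889 RPKM in WT and a log2 change of 1.15. The abundant keratin genes lay on the other side of WT and under 2-fold, KRT8 at 1059 RPKM in MYOCD and 1523 RPKM in WT (log2 change of -0.52) and KRT18 at 1134 and 1647 RPKM (-0.54), and CDH1 stood at 35.8 and 35.01 RPKM. The median log2 change of the 4 was -0.25. Markers of blood, endothelial, fibroblast and muscle cells (PTPRC, CD3E, PECAM1, COL1A2, COL3A1 and DES) summed to 0.452 RPKM in MYOCD and 0.184 RPKM in WT, with PTPRC and CD3E at 0 in both. Whether the EPCAM and keratin differences bear on the S100 values was not tested. Of the 11 steady reference genes 0 were called, with a median log2 change of -0.09 and a range of -0.62 to 0.20. The lowest was CHMP2A, at 58.6 RPKM in MYOCD and 90.6 RPKM in WT. The most abundant were GPI at 456 RPKM in MYOCD and 449 RPKM in WT, VCP at 235 and 248 RPKM and PSMB4 at 159 and 156 RPKM. Over all 17350 genes with at least 1 RPKM in a library, 5.42% were called higher and 6.35% lower.

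A few members carried nearly all of the S100 message, and the family's total lay close in the 2 libraries. The 10 members summed to 2325 RPKM in MYOCD and 2317 RPKM in WT, a ratio of 1.003. S100A10, S100A6 and S100A11 together held 85.3% of that sum in MYOCD and 83.8% in WT, and S100A4 held a further 7.55% in MYOCD and 10.2% in WT. The order of levels in MYOCD was S100A10, S100A6, S100A11, S100A4, S100A16, S100A13, S100A3, S100P, S100A2 and S100A14. In WT the order was the same except that S100P stood above S100A3. Whether neighbours in these orders differ beyond the spread between cultures cannot be judged from 1 library a group.

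**Figure D1:**
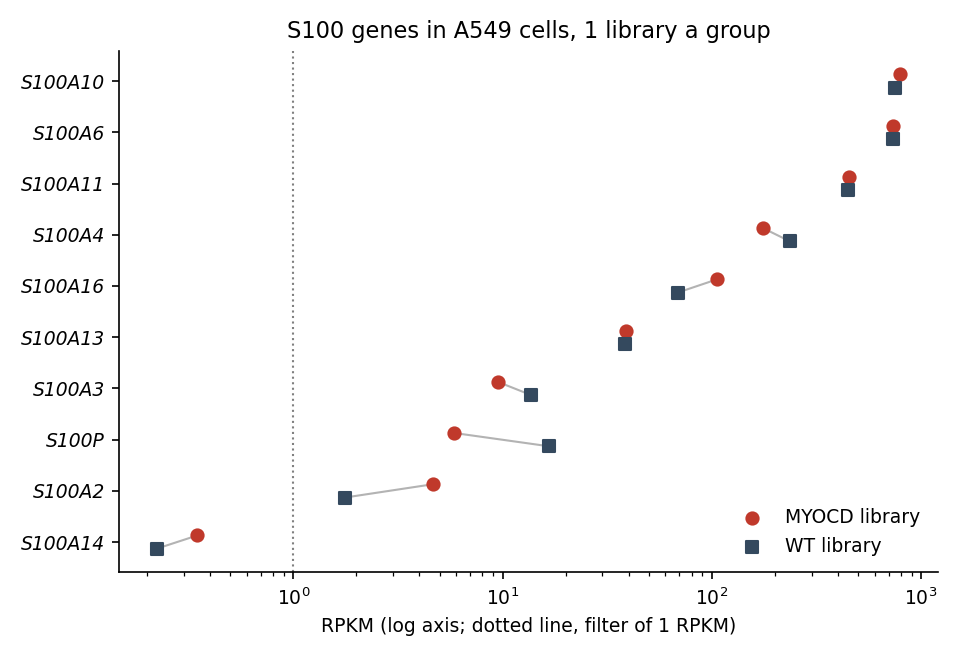
RPKM of the 10 S100 genes on a log axis, with the MYOCD library as circles above the WT library as squares and a dotted line at the filter of 1 RPKM. The abundant members S100A10, S100A6 and S100A11 overlap nearly in full, while S100A2 (4.66 and 1.77 RPKM in MYOCD and WT) and S100P (5.87 and 16.7 RPKM) lie apart in opposite directions.

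Among the members past the filter, 9 of 10, S100A2 was called higher and S100P was called lower. Over all 17350 genes past the filter, 5.42% were called higher and 6.35% lower, and over the 12337 protein-coding genes among them 3.02% and 3.1%. A count of 1 gene of 9 in each direction is too small to set the family apart from that background. The median log2 change of the 9 was 0.0037, and that of all genes past the filter was -0.0021. Of the 9, 4 (S100A6, S100A11, S100A13 and S100A10) lay within 1.1-fold of WT, a limit chosen after the values were seen, and 26.9% of all genes past the filter did so. S100A14 did not pass the filter.

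**Figure D2:**
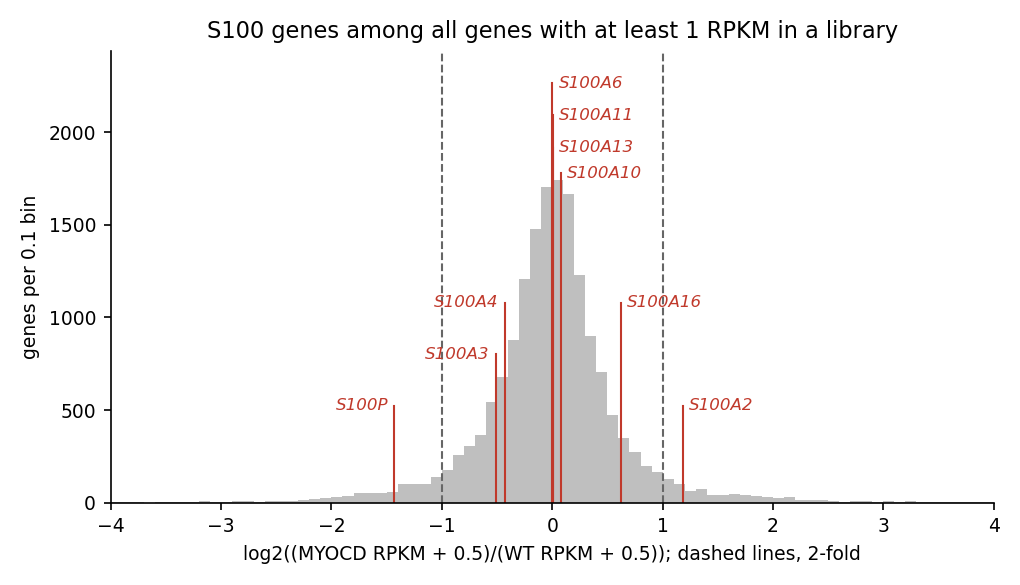
Histogram of the log2 change of the 17350 genes with at least 1 RPKM in a library, in bins of 0.1, with the 9 S100 genes past the filter as red lines (their heights carry no value) and dashed lines at 2-fold; 351 genes lie beyond a log2 change of 4 in either direction and are not drawn. S100P at -1.43 and S100A2 at 1.19 stand outside the dashed lines, and S100A6, S100A11, S100A13 and S100A10 lie at the peak.

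The partners of annexins were the most abundant S100 genes, and none was called. S100A10, a light chain that binds annexin A2 and holds an open shape without calcium, had 796 RPKM in MYOCD and 754 RPKM in WT, a log2 change of 0.08. It ranked 86th of 19695 protein-coding genes in MYOCD and 100th in WT. The gene of its partner, ANXA2, stood at 1461 RPKM in MYOCD and 1460 RPKM in WT, so that the RPKM ratio of S100A10 to ANXA2 was 0.545 in MYOCD and 0.517 in WT. S100A11, which binds annexin A1, had 450.4 RPKM in MYOCD and 449 RPKM in WT. ANXA1 itself stood at 903 RPKM in MYOCD and 741 RPKM in WT, a log2 change of 0.28. S100A6, or calcyclin, a partner of annexin A11 and of the ubiquitin ligase cofactor CACYBP, had 737 RPKM in each library. For both S100A6 and S100A11 the log2 change was 0.00. ANXA11 stood at 107 RPKM in MYOCD and 116 RPKM in WT, and CACYBP at 268 and 248 RPKM.

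S100A4, which binds the tail of nonmuscle myosin IIA and is known for its part in cell motility and metastasis, had 176 RPKM in MYOCD and 237 RPKM in WT. Its log2 change of -0.43 stayed under 2-fold. MYH9, the gene of that myosin heavy chain, had 252 RPKM in MYOCD and 137 RPKM in WT, a log2 change of 0.88 that also stayed under 2-fold. The S100A4 and MYH9 values lay on opposite sides of their WT levels. S100A3, a cysteine-rich protein of the hair cuticle, had 9.46 RPKM in MYOCD and 13.7 RPKM in WT, with a log2 change of -0.51. The S100A3 gene, on chromosome 1 from 153547329 to 153549372, lies inside the span of S100A4, from 153543613 to 153550136, on the same minus strand (GENCODE 29, GRCh38). The models of these neighbours share no exonic base.

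S100A2, a mainly nuclear member of basal epithelia, had 4.66 RPKM in MYOCD and 1.77 RPKM in WT. The deposited values differed 2.63-fold, and the log2 change was 1.19. Its level was low in both libraries, at rank 9511 of the protein-coding genes in MYOCD and 11168 in WT. With a filter of at least 5 RPKM in a library S100A2 was not counted and no member was called higher, while 3.93% of genes were called higher and 4.46% lower under that filter.

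S100P, first found in placenta and known from many carcinomas, had 5.87 RPKM in MYOCD and 16.7 RPKM in WT, so that WT was 2.84-fold higher. The log2 change was -1.43. In a bulk library, a lower level in each cell and a smaller share of cells that express the gene cannot be told apart. Its rank among protein-coding genes was 9008 in MYOCD and 5616 in WT. The genes of its cytoskeletal partners lay close in the 2 libraries, with ezrin (EZR) at 105 RPKM in MYOCD and 101 RPKM in WT and IQGAP1 at 76.2 and 72.7 RPKM. AGER, the gene of RAGE, to which released S100P binds, had 1.12 RPKM in MYOCD and 1.26 RPKM in WT.

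S100A16, a broadly expressed member, had 106 RPKM in MYOCD and 68.6 RPKM in WT. Its log2 change of 0.62 lay just past 1.5-fold, a mark that 11.6% of all genes passed upwards. S100A13, which takes part in the release of FGF1 and IL-1 alpha without a signal peptide, had 38.8 RPKM in MYOCD and 38.6 RPKM in WT. Its cargo genes were under 1 RPKM in both libraries, FGF1 at 0.0358 RPKM in MYOCD and 0.131 RPKM in WT and IL1A at 0 and 0.213 RPKM. Of the S100A13 exon bases, 24.2% are shared with AL162258.1 on the same strand (1.17 RPKM in MYOCD and 1.96 RPKM in WT) and 10.6% with S100A1 on the opposite strand, so its value is uncertain where such reads were assigned to a neighbour. S100A14, an epithelial member, had 0.348 RPKM in MYOCD and 0.222 RPKM in WT, under the filter in both.

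Sequence shared with other genes was otherwise small. Stretches of 50 bases from the GENCODE transcripts of each member were looked for in the transcripts of all other genes on both strands. S100A2, S100A3, S100A4, S100A6, S100A10, S100A14, S100A16 and S100P shared 0 such stretches. S100A11 shared 1.90%, all with AC006483.1, and S100A13 shared 25.7%, with AL162258.1 and S100A1.

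Within the chromosome 1 cluster, members above and below their WT levels lay next to each other. The cluster from S100A9 to S100A1 spans 274 kb, from 153357854 to 153632039, and held 15 protein-coding genes of the table, all of them S100 genes. Of these, 6 passed the filter, and they lay in the part from S100A6 to S100A13, where S100A2 and S100A16 stood above WT and S100A4 and S100A3 below it. S100A11 lies 1310 kb from S100A9, with S100A10 beyond it, and S100P lies on chromosome 4 from 6693069 to 6697170. The 11 remaining S100 genes were all under 1 RPKM, at 0 to 0.835 RPKM in MYOCD and 0 to 0.385 RPKM in WT. S100A9, a calprotectin subunit of myeloid cells and stressed epithelium, was highest of these at 0.835 RPKM in MYOCD and was listed at 0 in WT, while its partner S100A8 was listed at 0 in both. The 7 S100-fused genes of the skin barrier, FLG, FLG2, HRNR, RPTN, TCHH, TCHHL1 and CRNN, did not exceed 0.274 RPKM in MYOCD and 0.160 RPKM in WT.

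**Figure D3:**
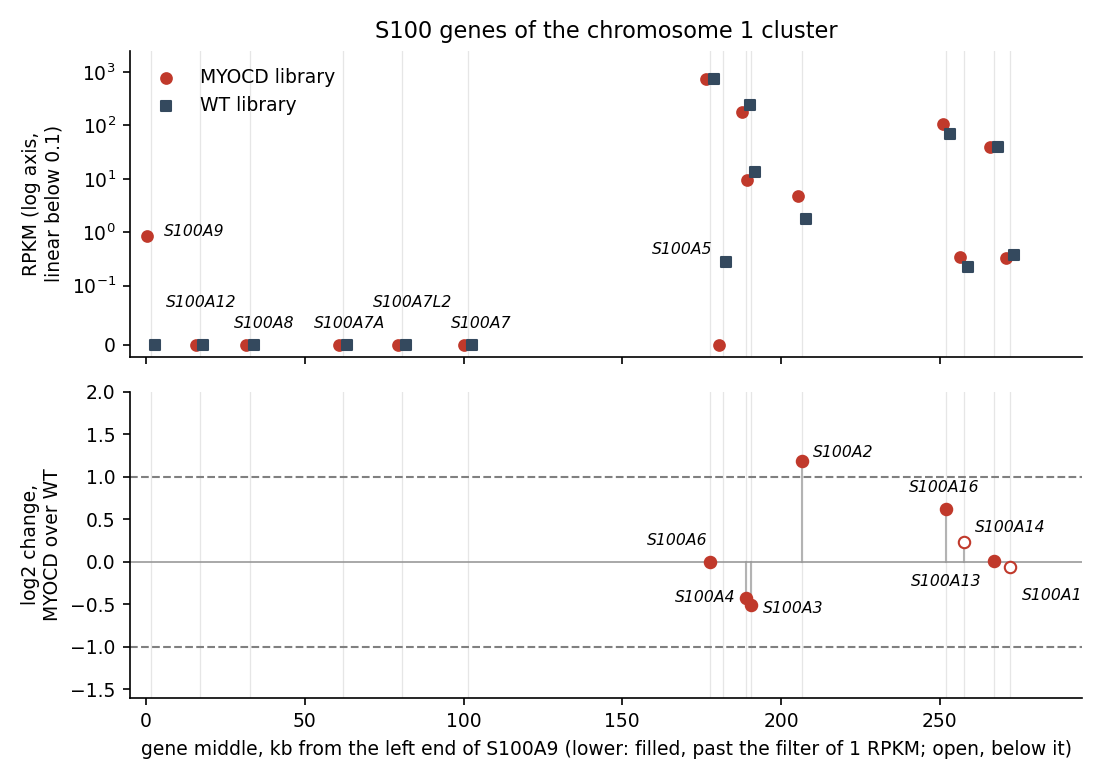
The 15 S100 genes of the chromosome 1 cluster by distance in kb from the left end of S100A9, with RPKM in each library above (log axis, linear below 0.1) and the log2 change below for genes above 0 in both libraries. S100A6 (log2 change of 0.00), S100A3 (-0.51), S100A2 (1.19) and S100A16 (0.62) lie within 100 kb of one another, and the left part of the cluster is at or near 0.

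Protein-coding genes within 200 kb of S100A2 and of S100P were looked up after the values had been seen. Noncoding genes there were not included. Near S100A2, the 5 protein-coding genes outside the family were CHTOP, SNAPIN, ILF2, NPR1 and INTS3. Of these, 4 passed the filter with log2 changes of -0.36 to 0.30 and none was called. Near S100P, 7 protein-coding genes passed, with log2 changes of -0.21 to 1.13. MAN2B2, a mannosidase gene, was the 1 called, higher with 15.04 RPKM in MYOCD and 6.60 RPKM in WT, in the direction opposite to S100P. Over all genes past the filter, 5.42% were called higher and 6.35% lower, and over the protein-coding ones 3.02% and 3.1%. Lists of this size cannot be set apart from either background.

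Among genes whose proteins bind S100 proteins or receive them, 22 of 26 passed the filter and 0 were called in either direction. Over all 17350 genes past the filter, 5.42% were called higher and 6.35% lower. Over the protein-coding genes past the filter the shares were 3.02% and 3.1%. A list of 22 is too small for 0 calls to set it apart from either background. The median log2 change of the 22 partner genes was 0.08, and 16 of them lay above 0, where 49.8% of all genes did. The highest was MYH9 at 0.88. The lowest was KCNK3, a potassium channel gene whose product binds S100A10, with 0.350 RPKM in MYOCD and 1.14 RPKM in WT and a log2 change of -0.95. AHNAK, a giant scaffold protein bound by S100A10 with annexin A2, had 78.5 RPKM in MYOCD and 60.1 RPKM in WT. PLAT and PLAU, the plasminogen activators whose substrate docks on S100A10, had 1.18 and 61.3 RPKM in MYOCD and 1.08 and 59.1 RPKM in WT. TLR4, another receptor for released S100 proteins, was at 0 RPKM in MYOCD and 0.0507 RPKM in WT.

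All 13 annexin genes passed the filter, with a median log2 change of 0.00. ANXA10, an annexin with lost calcium-binding sites, was the 1 called, higher with 4.95 RPKM in MYOCD and 0.164 RPKM in WT and a log2 change of 3.04. ANXA5, the most abundant of the family after ANXA2 and ANXA1, had 151 RPKM in MYOCD and 171 RPKM in WT. ANXA8L1, at 24.7 RPKM in MYOCD and 14.5 RPKM in WT, is a near copy of ANXA8 and reads common to both could have gone to either, so both values are uncertain. Of 27 further EF-hand genes 26 passed, with a median of -0.06, and EFHD1, which encodes a mitochondrial EF-hand protein, was the 1 called, lower with 1.34 RPKM in MYOCD and 3.83 RPKM in WT. The most abundant of them were CALM2, a calmodulin gene, at 654 RPKM in MYOCD and 778 RPKM in WT, CAPNS1, the calpain small subunit, at 646 and 762 RPKM, and the myosin light chain gene MYL6 at 454 and 385 RPKM. Over all 17350 genes past the filter, 5.42% were called higher and 6.35% lower. The shares over the protein-coding genes past the filter were 3.02% and 3.1%. Calls of 1 of 13 annexin genes and 1 of 26 EF-hand genes are too few to set either list apart from these backgrounds.

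**Figure D4:**
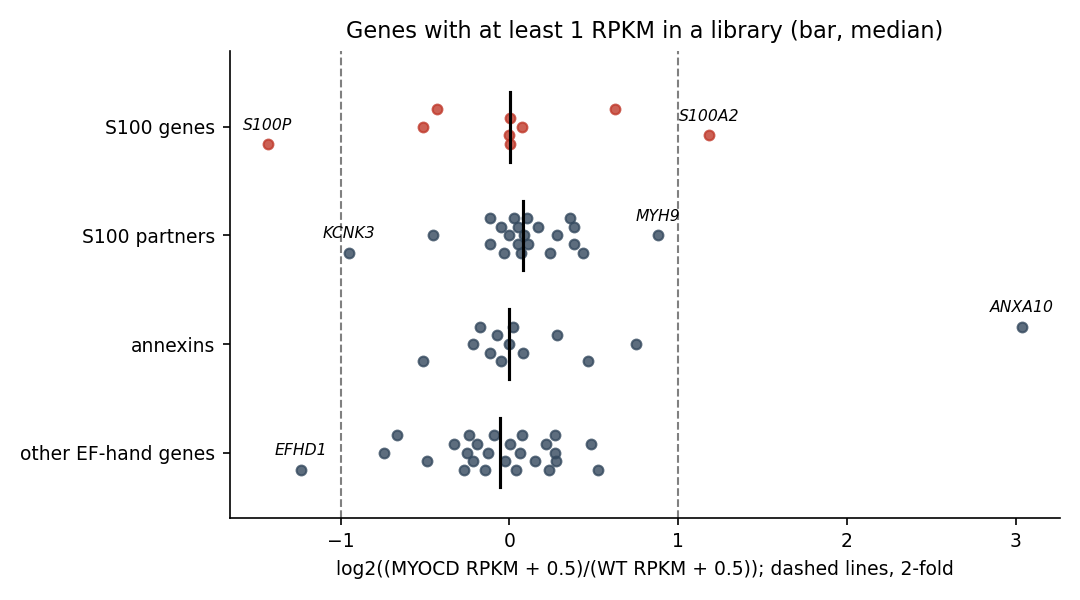
Log2 change of each gene with at least 1 RPKM in a library, for the 9 S100 genes, 22 genes of S100 partners, 13 annexin genes (4 of them also S100 partners) and 26 further EF-hand genes, with medians as bars and dashed lines at 2-fold. Each group centres near 0 (medians of 0.00, 0.08, 0.00 and -0.06), and S100P, S100A2, ANXA10 and EFHD1 are the points outside the dashed lines.

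RefSeq gave 14 promoter windows of 300 bases for the 10 members. The CArG box, the site at which SRF recruits myocardin, was searched on both strands and matched 0 of the 14, where 1.29% of 35116 windows of all genes held it. TGANTCA matched 2 of the 14 (14.3%), against 7.71% of all windows. These were 1 of 2 windows of S100A2, at 52 bases before the start, and S100A3, at 225 bases before it. TATAAA, added to the search after the values were seen, matched 3 of the 14 (21.4%), against 11.5% of all windows. These were in S100A4, S100P and 1 of 3 windows of S100A13. With 14 windows, counts of 0, 2 and 3 are too small to set the members apart from all windows. None of the matches in these 14 windows overlap. CpG content was not among the planned measures. CpG observed over expected was 0.840 for S100A10, 0.866 for S100A6 and 0.781 for S100A11, the 3 most abundant members. Over all windows the median was 0.579 and the quartiles were 0.229 and 0.856, so S100A10 and S100A11 lay between the quartiles. The window of S100P stood at 0.213 and those of S100A2 at 0.189 and 0.150. Over the other members the range was 0.118 to 0.429, apart from 1 window of S100A13 at 0.848. This range includes the members next in level, S100A4 at 0.293 and S100A16 at 0.118 and 0.338.

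**Figure D5:**
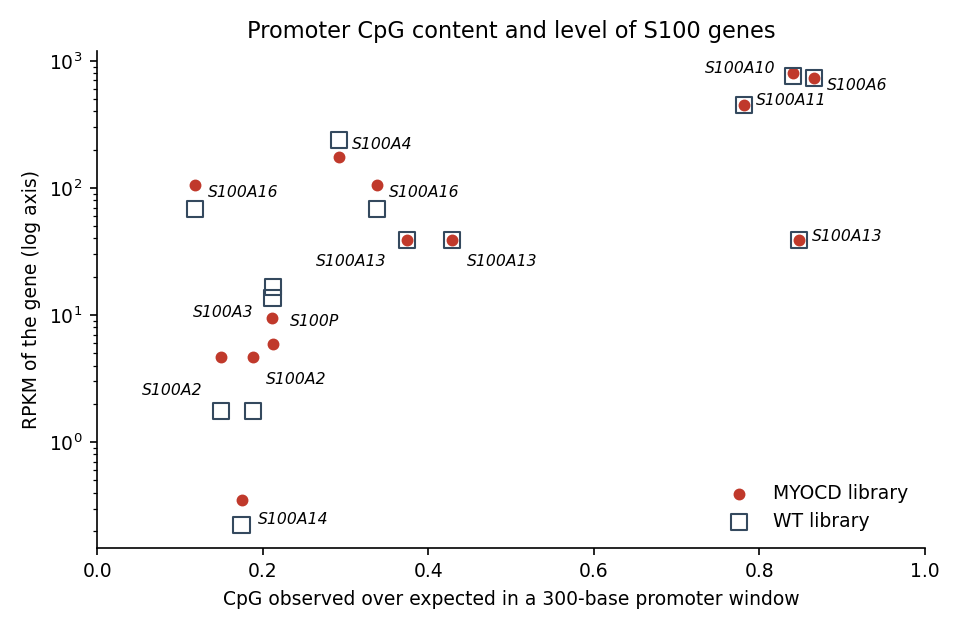
RPKM of each S100 gene (log axis) in the MYOCD library (circles) and the WT library (open squares) against CpG observed over expected in its RefSeq promoter windows, 1 column of points for each of the 14 windows. S100A10, S100A6 and S100A11 lie at the upper right, and S100A4, the next in level, lies at 0.293 on the horizontal axis. S100A2, S100P, S100A3, S100A14 and 1 of the windows of S100A16 lie at 0.213 or less.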

How the data were processed

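RNA of A549 cells was sequenced in 1 MYOCD library and 1 WT library after Trizol extraction and Illumina TruSeq library preparation, per the labels' protocols. Values are RPKM as the authors deposited them, per the file headers. The first lines of the table give the column headed A549_rtt_RPKM as WT and the column headed A549_M_RPKM as MYOCD overexpression. Per the submitters' processing notes, Bowtie 0.12.2 and the builds mm8 (mouse) and GRCh38.p12 were involved, in roles they do not state. No label or header names a counting tool, an annotation or a strand setting.

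For symbols on several rows, 248 in all, the row with the highest mean RPKM was used. Low values of gene models of at least 2000 nt with 1 transcript were divided by the best candidate for the step of 1 read: 33.1% in MYOCD and 31.3% in WT fell within 0.1 of a whole number, against 20% by chance, so reads could not be recovered, depth is unknown and no count test was run. Log2 changes used a pseudocount of 0.5 RPKM and a filter of at least 1 RPKM in a library, in Python 3.11.15 with pandas 2.3.3. The calculation was run on simulated data, where changes well past 2-fold were put into 200 well-expressed genes and all 200 were recovered. This checks the arithmetic only, and not calls near 2-fold or on low genes such as S100A2. Gene positions came from GENCODE 29, which held 57375 of the table's identifiers, and promoters from RefSeq. Alternatives changed the pseudocount, filter, scaling, size called and treatment of repeated symbols. The named genes were all members, MYOCD, and in each further list those at or beyond 2-fold and the 3 most abundant. Named after their values were seen were further partner genes, ANXA8L1, CHMP2A, S100A9, S100A8, the genes near S100A2 and, of those near S100P, the 1 called. The values of 1 gene of the partner list are not reported here. The members and lists were chosen with earlier results of these data known.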

Additional observations from a re-analysis of the deposited data

How the results depend on the processing

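No paired analysis was possible because each group has 1 library and no result comes from a test. S100A2 stayed higher and S100P lower with pseudocounts of 0.1 and 1 RPKM (log2 changes of 1.35 and 1.03 for S100A2, and -1.49 and -1.36 for S100P), under each of 3 scalings, with repeated symbols summed, without a filter and with a filter on the mean. With at least 5 RPKM in a library, 0 members were higher, since S100A2 was not counted. At 1.5-fold, 2 members were higher, S100A16 being added, where 11.6% of all genes past the filter were higher. Of the partner genes, 1 was higher at 1.5-fold (MYH9) and 1 lower (KCNK3). The share of all genes lower at 1.5-fold was not computed. Counts this small do not set either list apart from all genes. With a pseudocount of 0.1 RPKM, 1 partner gene was lower by 2-fold (KCNK3), and the share of all genes was not computed at that setting. With the steady reference genes at 0, the median of the members was 0.09, that of the partner genes 0.17 and the ratio of summed S100 levels 1.07. S100A6 changed sign, to -0.00, with both libraries at the same total without mitochondrial genes. RPKM hold no depth, so the limit that counting sets on S100A2, S100A14 and other low genes is unknown.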
